A study of Arabidopsis thaliana with 4 samples.

Results

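The genes of chlorophyll synthesis and breakdown were followed in seedlings of the Arabidopsis thaliana uba2c mutant and of wild type. They are 41 nuclear genes, chosen by locus identifier from knowledge of the pathway, among 32548 genes in the deposited expression table. The list runs from the committed steps of tetrapyrrole synthesis through the magnesium branch to the breakdown of chlorophyll, with the haem and bilin branch and 3 regulators. All 41 identifiers were in the table and matched a locus of the TAIR10.1 annotation. All 41 passed the filter on low values.

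RNA was sequenced from seedlings, 2 weeks old, of the Col-0 accession (wild type, n = 2) and of the homozygous uba2c mutant (n = 2). All plants grew on Murashige and Skoog medium with no further treatment, under 16 h of light (23 °C) alternating with 8 h of dark (22 °C). The UBA2C protein binds RNA, and according to its title the series concerns the timing of flowering under different ambient temperatures. The labels give neither the lesion in the mutant, nor how many plants went into a library, nor the hour of harvest. Where a transcript varies over the day, an effect of harvest hour cannot be told apart from one of genotype. Since no label states that the replicates were separate cultures, the p-values reflect a spread among samples that may be technical.

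The libraries held between 19720586 and 19847651 recovered reads. Between 1.09% and 1.11% of the reads in each library came from the 41 genes. Values are read counts that the authors adjusted to a common library size, given as mean ± SD of 2 libraries. Changes are log2 ratios of uba2c to wild type on the log2(value + 0.5) scale, which understates changes of low genes, with limma's standard error (SE) and its p adjusted by the Benjamini-Hochberg method over the 22439 genes tested. A gene was called at a false discovery rate (FDR) of 0.05. The UBA2C transcript was at 799 and 771 in wild type and 209 and 234 in uba2c, a log2 ratio of −1.83 (SE 0.08, limma adjusted p = 2.64e-06). It was thus lower in both libraries that carry the mutant label.

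Chlorophyll is built in the plastid from glutamate by enzymes that the nucleus encodes. Glutamate is turned into 5-aminolevulinic acid (ALA), and ALA units are joined and oxidised into protoporphyrin IX. At this point magnesium chelatase directs the porphyrin to chlorophyll, and ferrochelatase directs it to haem and to the bilin chromophore of the phytochromes. Chlorophyll is taken apart when leaves senesce: chlorophyll b is reduced to chlorophyll a, magnesium and the phytol tail are removed, and the ring is opened. Free intermediates of both routes generate toxic oxygen species in the light, and the routes are known for tight control.

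Changes among the 41 genes were small and went in both directions. In uba2c 8 rose and 15 fell, while 18 did not pass the FDR. Among all tested genes 34.8% were called, 17.4% as higher and 17.4% as lower. The members are expressed above most genes, with a median value of 2703 against 244 over all tested genes, and genes with more reads are called more often. Of the 2981 genes within the members' interquartile range of values, 1070 to 4244, 54.3% were called, 34.6% as higher and 19.7% as lower. This band stands for the members' levels below. It is set over all 41 members, and many of them lie above or below it. edgeR on recovered reads called 8 members higher and 18 lower, against 45.5% of all its tested genes, 22.6% higher and 22.9% lower. The library values of the genotypes did not overlap for 13 members that were higher and 21 that were lower, and for 68.1% of all tested genes, 33.6% higher and 34.5% lower. In limma 56.1% of the members were called, a share near that of genes at their levels, with 19.5% higher and 36.6% lower. The median change of the members was −0.05, against −0.00 over all tested genes. The median size of a change was 0.17 on the log2 scale for the members, 0.23 over all tested genes and 0.15 over genes of the members' levels. SGR2 was the only member that changed more than 2-fold, at −1.11 on the log2 scale, whereas 9.68% of tested genes differed by more than 2-fold.

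**Figure D1:**
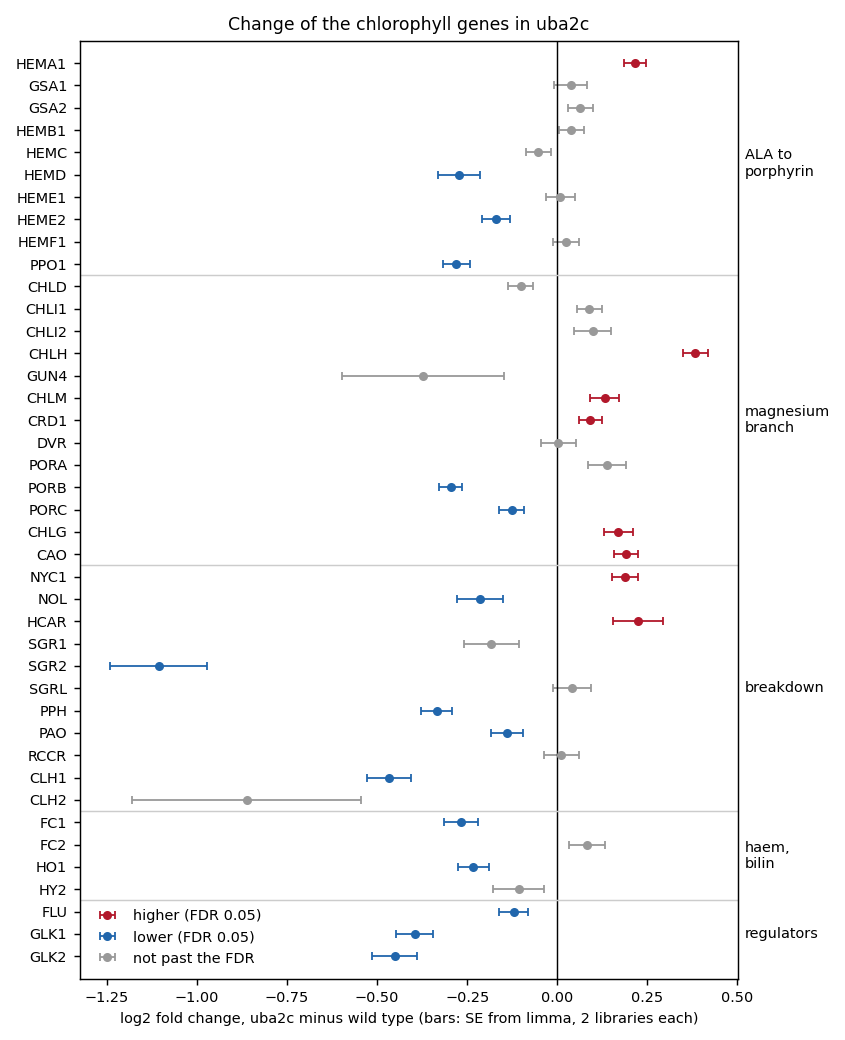
Log2 fold change of each of the 41 genes, uba2c minus wild type (x axis), by place in the pathway (y axis); points are limma estimates from 2 libraries per genotype, bars are SE, and colour marks the call at an FDR of 0.05. Of the 8 rises 5 lie in the magnesium branch, 38.5% of its 13 genes, against 34.6% higher among genes with values of 1070 to 4244. Most genes of that branch lie outside this band. CHLH is the largest rise at 0.38 and the only one still called after centring on reference genes. Of the 15 falls 5 lie among the 11 breakdown genes (45.5%) and 3 are the regulators, against 19.7% lower among genes in the same band. The breakdown genes SGR2, CLH2, SGR1, NOL and HCAR lie below it. SGR2 is the largest fall at −1.11.

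The rises depend on whether the libraries are centred on reference genes. Scaling by edgeR's TMM factors, taken over all genes, called 8 members higher and 14 lower. It called 4102 of all 22439 tested genes higher and 3884 lower, and moved their median by 0.006. Which scaling is closer to the true levels was not tested. The 8 reference genes, widely used to normalise plant expression data, had a median change of 0.19, within a range of −0.06 (UBQ10) to 0.34 (EF1A). On the deposited values 5 of the 8 reference genes (62.5%) were called higher and 0 lower, against 17.4% and 17.4% over all tested genes. When values were centred on these genes, the median of all tested genes moved by −0.19, and the share of all calls that were higher went from 50.0% to 16.2%. With that centring 1 member rose, CHLH, and 28 fell, while 1678 of all 22439 tested genes were called higher and 8651 lower. Since this centring lowers every change, it could only deepen the falls, and it says nothing about their stability. With uba2c 1 or uba2c 2 left out, 0 genes of the whole table passed in limma, although 7513 and 7412 had an unadjusted p under 0.05. With each library left out in turn, in limma and edgeR, CHLH ranged from 0.36 to 0.41 and HEMA1 from 0.21 to 0.22. CHLM ranged more widely, from 0.084 to 0.18. In bulk seedlings, fewer cells of a type and less RNA per cell cannot be told apart.

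**Figure D2:**
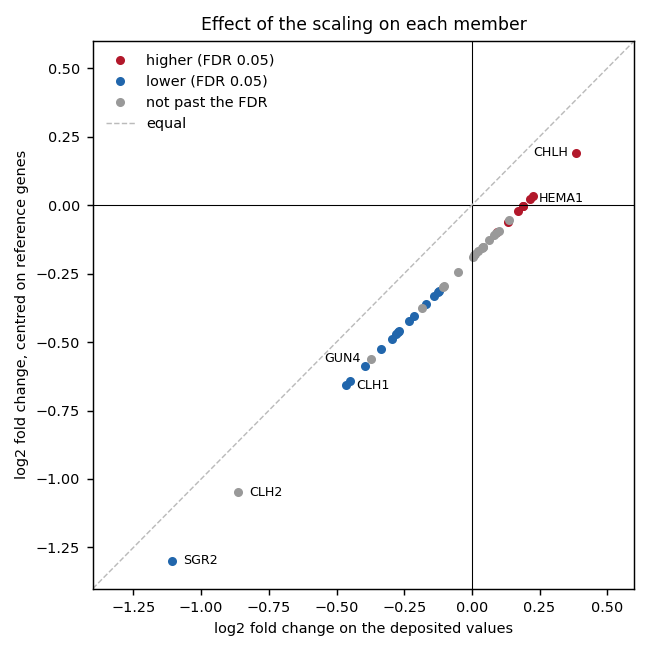
Log2 fold change of each member on the deposited values (x axis) against the change after centring on the median of 8 reference genes (y axis); colour marks the call on the deposited values and the dashed line marks equality. Every member lies below the line, and CHLH, at 0.19 after centring, is the only called rise that stays clearly above 0.

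The transcripts spanned 3 orders of magnitude. Per kilobase of annotated exon, the highest levels in wild type were those of CRD1 at 25322 ± 32.7 and PORB at 22699.5 ± 92.3. CHLH followed at 6561 ± 164 and CHLI1 at 5729 ± 104 per kilobase. The transcripts with the highest levels therefore encode enzymes of the magnesium branch. The lowest levels were those of SGR2 (100.3 ± 1.60), GUN4 (40.4 ± 7.51) and CLH2 (21.0 ± 2.96), all per kilobase in wild type. GUN4 and CLH2 overlap genes on the opposite strand over 73.0% and 71.5% of their exon length. Whether reads were counted by strand is not stated in the available sources, so the levels of GUN4 and CLH2 are uncertain. Another 12 members overlap an opposite-strand gene by 1.23% to 12.9% of their exon length, CRD1 the most. The loci of HEME1, CHLD, PAO, RCCR and FC1 overlap a gene on the same strand, which counting by strand would not separate. The length of those overlaps was not measured.

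**Figure D3:**
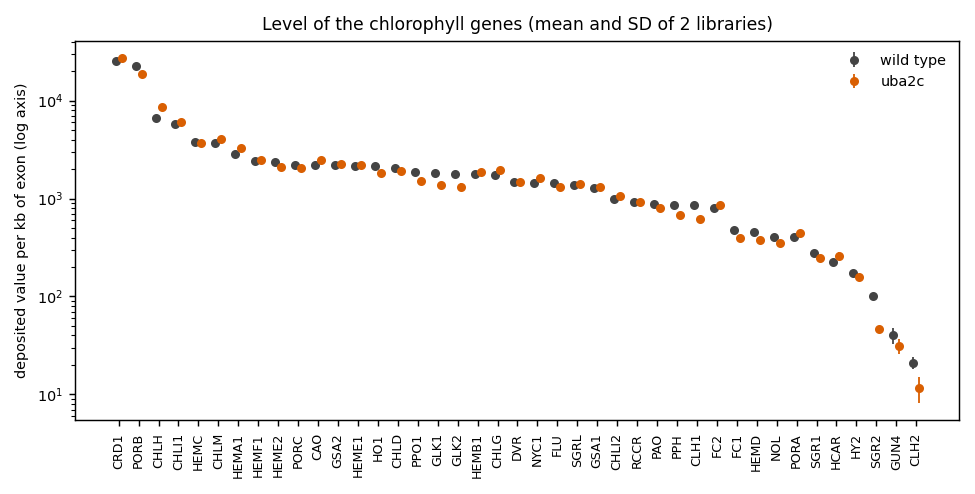
Deposited value per kilobase of exon on a log axis for each member, ordered by the wild type level; points are means and bars are SD of 2 libraries. CRD1 and PORB stand at the top, at 26994 and 18496 per kilobase in uba2c, and CLH2 stands at the bottom, at 11.5.

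In the steps from glutamate to protoporphyrin IX, the entry enzyme rose on the deposited values, though not past the FDR after centring on reference genes, and 3 later enzymes fell. HEMA1 encodes the main glutamyl-tRNA reductase, which sets the rate of ALA synthesis (AT1G58290, TAIR10.1 chromosome 1 from 21623700 to 21626402, minus strand, 3 exons). Its values were 6513 and 6578 in wild type and 7627 and 7571 in uba2c, so both mutant libraries lay above both wild type libraries. The mean went from 6546 ± 45.7 to 7599 ± 39.7 (n = 2 each), a log2 ratio of 0.22 (SE 0.03, limma adjusted p = 0.00140), which shrank to 0.02 after centring on reference genes (limma adjusted p = 0.680).

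GSA1 and GSA2, the aminotransferases that complete ALA synthesis, did not pass the FDR. GSA1 was at 2568 and 2435 in wild type and 2489.8 and 2643 in uba2c, with overlapping genotypes. GSA2 was at 3916 and 3802 in wild type and 4042 and 4028 in uba2c, slightly higher in uba2c but not past the FDR (limma adjusted p = 0.190). The 95% intervals of their changes were −4.67% to 10.4% and −1.11% to 10.5%. HEMB1, which joins ALA into porphobilinogen, had an interval of −2.73% to 8.58%, and HEMC, which links porphobilinogen into a chain, one of −8.62% to 1.79%. Of the 50-base runs in HEMB1 exons 12.2% occur more than once in the genome, so some of its reads may be shared with other places, and for every other member the share was 0%.

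HEMD, the uroporphyrinogen III synthase that closes the ring, fell from 770.5 ± 18.0 to 638 ± 31.5 (log2 ratio −0.27, SE 0.06, limma adjusted p = 0.00823). Of the uroporphyrinogen decarboxylase genes HEME2 fell and HEME1 did not pass. HEME1 was at 4339 and 4524 in wild type and 4359 and 4558 in uba2c, with overlapping genotypes and an interval of −5.55% to 7.14%. HEME2 was at 3728 and 3621 in wild type and 3193 and 3338 in uba2c and fell by 11.1% (limma adjusted p = 0.0114). The difference between the paralogs was not tested. Their coding sequences are 61.7% identical, with no shared exact run over 12 bases, so a read of 50 bases can be assigned to either.

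HEMF1, the coproporphyrinogen oxidase gene, did not pass (−4.12% to 7.69%). PPO1 encodes the plastid protoporphyrinogen oxidase, the last enzyme before the branch point. It was at 3266 and 3402 in wild type and 2727 and 2762 in uba2c, and fell from 3334 ± 96.6 to 2745 ± 25.1 (log2 ratio −0.28, SE 0.04, limma adjusted p = 0.000970). In this stretch 1 of 10 genes (10%) rose and 3 (30%) fell, against 34.6% and 19.7% of genes at the members' levels. HEMA1, HEMC and HEME1 lie above that band of 1070 to 4244, and HEMD lies below it. The median change of the stretch was 0.02, which turned negative with reference gene centring.

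The magnesium branch held the largest rise. CHLH encodes the subunit of magnesium chelatase that binds protoporphyrin IX (AT5G13630, TAIR10.1 chromosome 5 from 4387307 to 4392429, minus strand, 5 exons). Its values were 30661 and 31764 in wild type and 40030.4 and 41413 in uba2c. Every mutant value lay above every wild type value by far more than replicates differed. CHLH rose from 31213 ± 780.0 to 40722 ± 977 (n = 2 each), by 30.5% (log2 ratio 0.38, SE 0.04, limma adjusted p = 0.000129), and it was still higher after reference gene centring (0.19, limma adjusted p = 0.00856).

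The other chelatase subunits did not move with CHLH beyond the FDR. CHLI1, the main subunit that splits ATP, was at 9329.9 and 9094 in wild type and 9976 and 9617 in uba2c (limma adjusted p = 0.0814). Its paralog CHLI2 was at 1535 and 1527 in wild type and 1715 and 1566 in uba2c (limma adjusted p = 0.177). CHLD, the subunit that joins the others, was at 5316 and 5395 in wild type and 4885 and 5097 in uba2c, just outside the FDR in limma (adjusted p = 0.0597) and just inside it with edgeR on recovered reads (adjusted p = 0.0332). For CHLI1 and CHLI2 both mutant values lay above the wild type values, and for CHLD both lay below. GUN4, an activator of the chelatase, was counted with 36 to 61 reads per library, and its interval of −46.1% to 10.8% covers both directions.

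After the chelatase, the methyltransferase and cyclase genes rose slightly on the deposited values and were below 0 with reference gene centring. CHLM, the methyltransferase gene, rose from 6297 ± 62.9 to 6902 ± 322 (log2 ratio 0.13, limma adjusted p = 0.0350), with uba2c 2 higher than uba2c 1. CRD1, also called CHL27, encodes a subunit of the cyclase that forms the fifth ring. It was at 37841 and 37772 in wild type and 40083 and 40521 in uba2c and rose by 6.60%, just inside the FDR (limma adjusted p = 0.0496). The CHLM and CRD1 rises turned to −0.06 and −0.10 with reference gene centring, and neither passed there. DVR, the divinyl reductase gene, overlapped between genotypes (−7.31% to 8.37%).

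Of the protochlorophyllide oxidoreductases, which need light to act, PORB and PORC fell and PORA did not pass. PORB, the isoform that dominated here, was at 37143 and 37357 in wild type and 29982 and 30721 in uba2c, with no overlap between genotypes. PORB fell from 37249.9 ± 151 to 30351 ± 523 (log2 ratio −0.30, SE 0.03, limma adjusted p = 0.000289). PORC was at 3933 and 3979.5 in wild type and 3585 and 3666 in uba2c and fell by 8.37% (limma adjusted p = 0.0241), a call lost with DESeq2 on recovered reads. PORA, known from dark-grown seedlings, was at 657 and 678 in wild type and 722 and 747 in uba2c, higher in both mutant libraries but not past the FDR (limma adjusted p = 0.0797). PORA and PORB share 83.3% of their aligned coding bases and exact runs of at most 44 bases, under the read length of 50.

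The last synthesis steps rose on the deposited values and lost their rise with reference gene centring. CHLG, the chlorophyll synthase gene, whose enzyme attaches the phytol tail, rose from 3028 ± 60.8 to 3407 ± 136 (log2 ratio 0.17, limma adjusted p = 0.0147). CAO, the oxygenase that makes chlorophyll b, was at 5022 and 5092 in wild type and 5825 and 5714 in uba2c, and rose from 5057 ± 49.8 to 5769 ± 78.4 (log2 ratio 0.19, SE 0.03, limma adjusted p = 0.00323). Centred on reference genes, CHLG and CAO were at −0.02 and −0.00. In the magnesium branch 5 of 13 genes (38.5%) rose and 2 (15.4%) fell, against 34.6% and 19.7% of genes at the members' levels. That band of 1070 to 4244 matches this branch poorly. CHLH, CRD1, PORB, CHLI1, CHLM, CAO and CHLD lie above it, and GUN4 and PORA lie below it. The branch median of 0.09 also turns negative with that centring.

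**Figure D4:**
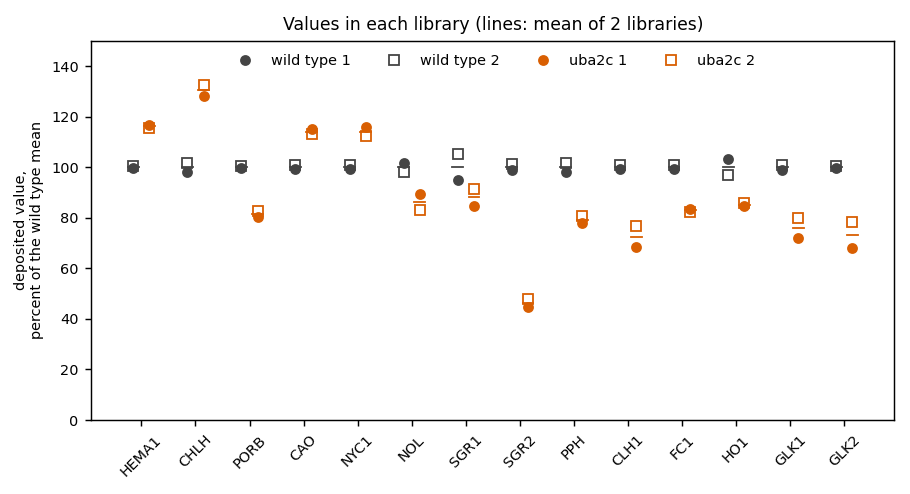
Deposited value in each library as a percent of the gene's wild type mean (y axis) for 14 members (x axis); circles are replicate 1, squares replicate 2, and lines the mean of 2 libraries. Wild type values lie close to 100%, HEMA1, CHLH, CAO and NYC1 are higher in both uba2c libraries, and SGR2 is lowest, with both uba2c libraries below 50% of wild type.

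Breakdown genes fell more often than they rose, with a median of −0.18. Of the 11 genes 5 (45.5%) were lower and 2 (18.2%) higher, against 19.7% and 34.6% of genes at the members' levels. SGR2, CLH2, SGR1, NOL and HCAR lie below that band of 1070 to 4244. The rises, both lost with reference gene centring, were at the reduction of chlorophyll b, which feeds chlorophyll b back to chlorophyll a. NYC1, a chlorophyll b reductase, was at 2931 and 2972 in wild type and 3417 and 3311 in uba2c and rose from 2952 ± 28.4 to 3364 ± 74.8 (limma adjusted p = 0.00533). NOL, its partner reductase, was at 575 and 554 in wild type and 505 and 469 in uba2c and fell by 13.7% (limma adjusted p = 0.0343). HCAR, the reductase of the next step, rose from 497 ± 6.91 to 582 ± 46.2 (limma adjusted p = 0.0385), with uba2c 1 well above uba2c 2. With reference gene centring NYC1 was at −0.00 and HCAR at 0.03, neither past the FDR, and NOL kept its fall.

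SGR2 showed the largest change of all members. The STAY-GREEN proteins SGR1 and SGR2 and the related SGRL act at the removal of magnesium from chlorophyll or its derivatives. SGR2 (AT4G11910, TAIR10.1 chromosome 4 from 7156150 to 7158047, plus strand, 4 exons) was at 129.8 and 133 in wild type and 58.7 and 62.8 in uba2c. SGR2 fell from 131 ± 2.09 to 60.7 ± 2.93 (n = 2 each), a log2 ratio of −1.11 (SE 0.14, limma adjusted p = 0.000589). The gap between genotypes was many times the gap between replicates.

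SGR1, the paralog known as the main dechelatase of senescing leaves, was at 468 and 518 in wild type and 417 and 450.4 in uba2c. Both mutant values lay below both wild type values, but SGR1 did not pass in limma (log2 ratio −0.18, adjusted p = 0.0957) and passed with edgeR on recovered reads (adjusted p = 0.0427). SGRL was at 1546 and 1697 in wild type and 1696 and 1636 in uba2c, with overlapping genotypes. SGR1 and SGR2 are 80.1% identical over aligned coding bases and share no exact run over 28 bases. Whether the changes of SGR1 and SGR2 differ was not tested.

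The bases before the annotated starts of SGR2 and SGR1 are shown because these paralogs differ in the motifs held there, together with those of CAO, which rose, and NOL, which fell. Each stretch is 250 bases of the TAIR10.1 genome, 5′ to 3′ on the gene's strand, and capitals mark CACGTG (the G-box, bound by bZIP and bHLH factors such as HY5, PIFs and ABFs) or ACGTGG (a core of abscisic acid response elements) on either strand. ACGTGG overlaps the G-box where CACGTG is followed by G or, on the other strand, preceded by C.
SGR2 (chr4:7155900-7156149, plus strand): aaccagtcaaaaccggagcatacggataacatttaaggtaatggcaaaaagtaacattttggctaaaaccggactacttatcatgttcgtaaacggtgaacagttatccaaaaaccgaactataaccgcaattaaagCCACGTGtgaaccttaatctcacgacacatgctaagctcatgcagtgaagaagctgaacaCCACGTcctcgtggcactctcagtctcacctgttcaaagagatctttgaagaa
SGR1 (chr4:12018644-12018893, minus strand): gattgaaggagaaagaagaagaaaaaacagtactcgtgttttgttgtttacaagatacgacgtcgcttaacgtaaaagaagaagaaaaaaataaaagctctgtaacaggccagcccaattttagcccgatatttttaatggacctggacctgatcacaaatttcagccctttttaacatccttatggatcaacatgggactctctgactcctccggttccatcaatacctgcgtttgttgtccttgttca
CAO (chr1:16851272-16851521, minus strand): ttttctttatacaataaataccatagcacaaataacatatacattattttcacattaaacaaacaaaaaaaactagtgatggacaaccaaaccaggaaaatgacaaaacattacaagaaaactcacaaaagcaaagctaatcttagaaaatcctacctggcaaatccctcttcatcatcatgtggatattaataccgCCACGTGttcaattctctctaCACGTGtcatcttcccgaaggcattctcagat
NOL (chr5:1434524-1434773, plus strand): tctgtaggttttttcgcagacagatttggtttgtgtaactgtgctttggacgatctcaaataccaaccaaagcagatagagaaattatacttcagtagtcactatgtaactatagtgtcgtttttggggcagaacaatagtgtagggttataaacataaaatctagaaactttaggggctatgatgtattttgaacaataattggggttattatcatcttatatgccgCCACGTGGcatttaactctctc
SGR2 held 1 G-box, 112 bases before the start, and 2 matches to ACGTGG, 1 of them overlapping the G-box. SGR1 held none of the motifs searched. CAO held 2 G-boxes, 52 and 32 bases before the start, and 1 ACGTGG match overlapping a G-box. NOL held 1 G-box at 21 bases and 2 ACGTGG matches overlapping it.

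Over all 41 members, 7 (17.1%) held CACGTG within 250 bases before the start, against 6.49% of 27444 protein-coding genes in the table. For ACGTGG it was 9 members (22.0%) against 8.23%. The evening element AAATATCT, bound by clock MYB factors, was in 3 members (7.32%) against 4.79%, and CCAATC, a sequence reported at GLK targets, in 4 (9.76%) against 10.2%. The G-box stood in 2 of the 8 members that rose, 3 of the 15 that fell and 2 of the 18 others. GLK1 and GLK2 held none of these letters in this window.

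The enzymes that act after magnesium removal fell or did not pass. PPH, the pheophytinase that removes phytol in senescing leaves, was at 1931 and 1999.6 in wild type and 1529 and 1587 in uba2c, and fell from 1965 ± 48.4 to 1558 ± 41.4 (log2 ratio −0.34, SE 0.04, limma adjusted p = 0.000731). PAO, the oxygenase that opens the ring, was at 1784 and 1764 in wild type and 1561 and 1660.0 in uba2c and fell by 9.25% (limma adjusted p = 0.0435), a call lost in 10 of 21 alternatives. RCCR, which acts on the product of PAO, did not pass (−6.87% to 9.13%).

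The chlorophyllase genes lay lower in uba2c. CLH1, whose transcript responds to jasmonate and whose enzyme also removes phytol, was at 1231 and 1251 in wild type and 848 and 951 in uba2c. CLH1 fell from 1241 ± 14.6 to 899 ± 72.7 (log2 ratio −0.47, SE 0.06, limma adjusted p = 0.000817), the largest change after SGR2 among the members called lower and one in which uba2c 1 was the lower mutant library. CLH2 was at 27.2 and 22.3 in wild type and 16.4 and 10.8 in uba2c, on 11 to 28 reads per library. It did not pass in limma (log2 ratio −0.86, adjusted p = 0.0696) and passed with edgeR on recovered reads (adjusted p = 0.0360).

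In the haem and bilin branch 2 of 4 genes (50%) fell and 0 rose at the FDR, with a median of −0.17. Of genes at the members' levels 19.7% were lower and 34.6% higher, but FC1 and HY2 lie below that band of 1070 to 4244. FC1, a ferrochelatase linked to haem for use outside photosynthesis, was at 965 and 979.9 in wild type and 813 and 801 in uba2c, with closely matched replicates. FC1 fell from 973 ± 10.4 to 807 ± 8.34 (log2 ratio −0.27, SE 0.05, limma adjusted p = 0.00341). FC2, the ferrochelatase of green tissue, was at 1601 and 1663 in wild type and 1660.2 and 1795 in uba2c and its genotypes overlapped (−2.34% to 14.6%). HO1, the haem oxygenase also known as HY1, was at 3106 and 2913 in wild type and 2541 and 2578 in uba2c and fell by 14.9% (limma adjusted p = 0.00405). HY2, the phytochromobilin synthase gene, was at 345 and 336 in wild type and 313 and 319.8 in uba2c and did not pass (−17.0% to 3.92%).

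All 3 regulators fell, against 17.4% lower over all tested genes and 19.7% lower among genes at the members' levels. GLK1 and GLK2 encode transcription factors that activate nuclear genes of chlorophyll synthesis and light harvesting. GLK1 (AT2G20570, TAIR10.1 chromosome 2 from 8855302 to 8857758, plus strand) was at 3127 and 3189 in wild type and 2279 and 2527 in uba2c. GLK2 (AT5G44190, TAIR10.1 chromosome 5 from 17798262 to 17800926, plus strand) was at 3109 and 3129 in wild type and 2126 and 2447 in uba2c. For both genes every mutant value lay below every wild type value, with uba2c 1 the lower mutant library.

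GLK1 fell from 3158 ± 43.6 to 2403 ± 176 (log2 ratio −0.40, SE 0.05, limma adjusted p = 0.000835). GLK2 fell from 3119 ± 13.9 to 2287 ± 227 (log2 ratio −0.45, SE 0.06, limma adjusted p = 0.00106). The paralogs stood at similar levels per kilobase in wild type, 1824 ± 25.2 and 1801 ± 8.05. Their coding sequences are 67.5% identical and share no exact run over 24 bases. FLU, a negative regulator of glutamyl-tRNA reductase, was at 1808 and 1826 in wild type and 1643 and 1698 in uba2c and fell by 8.07%, just inside the FDR (limma adjusted p = 0.0496) and outside it in 13 of 21 alternatives.

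Most markers of green tissue fell. Of 16 nuclear genes for light harvesting, photosystems and Rubisco, 12 (75%) fell and 3 (18.8%) rose, with a median of −0.16. Over all tested genes 17.4% were lower and 17.4% higher, and genes with more reads are called more often. The rises were RBCS1A (0.28), RCA (0.23) and LHCB1.1 (0.18), while LHCA4 did not pass. The summed value of the 16 markers was 1835445 and 1823706 in wild type and 1656789 and 1760622 in uba2c. Root markers were mixed, with 5 of 15 (33.3%) higher and 7 (46.7%) lower and a median of −0.75. Their summed value was 38905 and 39790.2 in wild type and 42139 and 41569 in uba2c, most of it from PYK10, so the sum and the median moved in opposite directions. The root hair genes PRP3 and EXPA7 fell (−1.93 and −1.89) and the iron uptake genes IRT1 and FRO2 rose (2.18 and 1.59). No marker of either list was at 0 in every library. The part of organ proportions in the changes of the chlorophyll genes was not tested.

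Senescence markers also moved in both directions. There were 9 markers, among them NAC29, which the factors below also include under the name NAP. Of these, 5 (55.6%) rose and 3 (33.3%) fell, against 17.4% higher and 17.4% lower over all tested genes. Their summed value was 5892 and 5895 in wild type and 9807 and 10214 in uba2c. Most of its rise came from SEN1 (mean 2121 in wild type, 4319 in uba2c) and SAG21 (2269 and 3793). SAG113, SEN1 and SAG21 rose (2.97, 1.03 and 0.74) and SAG13 fell (−1.51). SAG12, named after its values were seen, was at 39.8 and 28.0 in wild type and had no read in either uba2c library. Their part in the changes of the breakdown genes was not tested.

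Other genes of the tetrapyrrole pathway, outside the 41, also moved in both directions. Of 18 further enzymes and helpers 5 (27.8%) rose and 4 (22.2%) fell, with a median of −0.01. Over all tested genes 17.4% were higher and 17.4% lower. UPM1, which directs uroporphyrinogen III to sirohaem, rose from 2201 ± 30.9 to 3871 ± 11.5 (log2 ratio 0.81, SE 0.04, limma adjusted p = 3.14e-06). HO3, a minor haem oxygenase gene, fell from 44.1 ± 2.09 to 15.1 ± 0.906 (log2 ratio −1.52, limma adjusted p = 0.00203). HEMA2, the second glutamyl-tRNA reductase gene, rose from 401 ± 11.1 to 541 ± 8.13, and GGR, which makes the phytol tail, from 32570.4 ± 382 to 38956 ± 560.2, both named after their values were seen (limma adjusted p = 0.00127 and 0.000609).

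Of 8 genes of late catabolism and phytol recycling 1 (12.5%) rose and 3 (37.5%) fell, with a median of −0.12. Over all tested genes 17.4% were higher and 17.4% lower. PES2, a phytyl ester synthase gene, fell from 346 ± 2.76 to 233 ± 2.51 (log2 ratio −0.57, SE 0.07, limma adjusted p = 0.000821).

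Among 21 transcription factors known to act on the pathway, 14 (66.7%) rose and 0 fell in limma, with a median of 0.38. Over all tested genes 17.4% were higher and 17.4% lower, and the list was chosen with earlier results of these data known. HY5 was lower in both uba2c libraries. It did not pass in limma (adjusted p = 0.0532) and passed as lower with edgeR on recovered reads (adjusted p = 0.0306). The 4 factors with the lowest p among those that changed by at least 0.5 on the log2 scale are known activators of breakdown genes in hormone and senescence responses. NAC019 rose from 111 ± 12.5 to 350.1 ± 36.2 (log2 ratio 1.65, limma adjusted p = 3.69e-05) and ABF3 from 984 ± 4.89 to 1719 ± 103 (0.80, limma adjusted p = 2.14e-05). ABF4 rose by 0.60 and ORE1 by 0.70 on the log2 scale (limma adjusted p = 9.02e-05 and 0.000124). These 4 stayed higher after reference gene centring.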

How the data were processed

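RNA from 4 libraries (2 wild type, 2 uba2c) was sequenced as reads of 50 bases. The submitters' processing notes name the TAIR10 genome and the tools FastQC, HISAT2, SAMtools 1.9, featureCounts and edgeR, without a strand setting. Per gene, the deposited table gives a signal, namely read counts that the authors adjusted to a common library size. They are the values edgeR makes by quantile adjustment: inverting that adjustment within each genotype gave whole reads for 100% of values (tolerance 0.001). Gene positions, overlaps and sequences come from the TAIR10.1 annotation and genome in RefSeq. The table holds no coordinates.

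Testing was limited to genes reaching a value of 1 in 2 or more libraries. It was done with limma 3.58.1 (R 4.3.3), with a mean-variance trend, on log2(value + 0.5), at an FDR of 0.05 over 22439 genes. edgeR 4.0.16 and DESeq2 1.42.0 ran on the recovered reads as alternatives, edgeR calling 9138 of 20091 genes. The limma and edgeR fits were also run on simulated counts, built from the wild type means and the dispersion of these data. The other steps were not simulated. In the simulation limma missed most changes of the small size seen for most members. edgeR missed fewer and called a few unchanged genes, as an FDR allows. Far fewer genes were changed there than were called in the data, which makes the FDR harder to pass. The simulated recovery does not carry over to the members. With 2 libraries a genotype, a member that did not pass is not shown to be unchanged. Exact permutation of 2 against 2 libraries cannot reach the threshold. No row was without a gene name.

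The members and lists were chosen with earlier results of these data known. All members are named. Values in every library are given for called members with a change of at least 0.3 on the log2 scale and for paralogs, and, chosen after values were seen, for further members. From other lists up to 4 genes were named by lowest p among those called with a change of at least 0.5. SAG12, HEMA2, GGR, HY5, PYK10, NAC29, RBCS1A, RCA, LHCB1.1, LHCA4, UBQ10 and EF1A were named outside that rule. The level-matched background, the 14 genes plotted by library and the 4 promoters printed were also chosen after values were seen. Intervals are 95% limma intervals.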

Additional observations from a re-analysis of the deposited data

How the results depend on the processing

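Over 21 alternatives, the 15 falls never changed direction, although centring on the reference genes could not have turned them. Of all 22439 tested genes, centring on the reference genes called 1678 higher and 8651 lower. It gave 1 member higher and 28 lower, with a median of −0.24 over the members. It reversed 17 members that were higher on the deposited values: the called rises CHLM (−0.061), CRD1 (−0.10), CHLG (−0.022), CAO (−0.0021) and NYC1 (−0.0034), and among the uncalled genes GSA1 (−0.16), GSA2 (−0.13), HEMB1 (−0.15), HEME1 (−0.18), HEMF1 (−0.17), CHLI1 (−0.10), CHLI2 (−0.094), DVR (−0.19), PORA (−0.054), SGRL (−0.15), RCCR (−0.18) and FC2 (−0.11). edgeR on library totals reversed HEME1 (−0.0032) and DVR (−0.0087). Without a filter on low values 5 members rose, beside 3240 of all 24870 genes tested there, and DESeq2 called 4807 genes in all. The cause of these differences was not tested.

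Leaving out each library in turn, with limma and edgeR, gave 0 to 7251 genes called, 0 to 9 members higher and 0 to 14 lower. The lone library is then assumed to vary like the pair. limma called 0 genes without uba2c 1 and without uba2c 2. Members near 0 changed sign: GSA1 ranged from −0.0062 to 0.080, HEME1 from −0.024 to 0.042, HEMF1 from −0.0017 to 0.048, DVR from −0.051 to 0.058, SGRL from −0.027 to 0.11 and RCCR from −0.039 to 0.063. A fit with a replicate block called 8025 genes, with 8 members higher and 16 lower, and edgeR with a replicate block called 9404. Same-numbered libraries did not visibly deviate together (r = 0.008 over 19816 genes, which are not independent replicates). With 2 libraries a genotype this cannot tell whether the samples were paired, and the labels do not say. Neither block ended the call of a member. The precision is limited by having 2 libraries a genotype. The calls of FLU, CRD1, PAO, HCAR, PORC, CHLM and NOL were lost in 7 to 13 of the alternatives.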
